A study of Mus musculus with 12 samples.

Results

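The 32 genes described here are the main genes of the unfolded protein response, the program that cells run when proteins in the endoplasmic reticulum (ER) fail to fold. They were named by gene symbol and not by a cut on measured values. Earlier results of these data were known when they were chosen. All 32 were found among the 24964 genes of the deposited count table. The tissue was mouse uterus at 13.5 days post coitum, and RNA-seq gave 12 libraries in 3 groups of 4. The first group, PGR-A OE, had the genotype Myh11Cre; LSLPGRA/+ and overexpressed isoform A of the progesterone receptor. The second, PGR-B OE, had the genotype Myh11Cre; LSLPGRB/+ and overexpressed isoform B. The control group carried Myh11Cre alone, so Cre was shared by all 3 groups. Myh11 is a smooth muscle gene, and Cre driven by it acts in smooth muscle, including that of vessels, and not in the whole uterus. The labels give the same gestational age for each library and do not say whether replicates came from separate animals, so p-values measure the spread between these libraries only. Each gene was also set beside Prl8a2, a prolactin-family gene of the decidua, as a sign of how much decidua each library held.

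As background, the ER lumen holds chaperones of the heat shock families, lectin chaperones that bind glycoproteins, and isomerases that form disulfide bonds. Misfolded proteins are sensed by 3 membrane proteins, IRE1 (encoded by Ern1), PERK (Eif2ak3) and ATF6. IRE1 splices Xbp1 mRNA, ATF6 is cut in the Golgi to release a transcription factor, and both factors raise transcription of chaperones and of the ER-associated degradation machinery. PERK phosphorylates eIF2alpha, which slows translation and favours that of ATF4, and ATF4 raises CHOP (Ddit3) and genes of amino acid supply. Secretory cells such as plasma cells and decidual cells run parts of this program as they take up secretion. Gene-level counts do not separate spliced from unspliced Xbp1.

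The libraries held 31872534 to 33078483 counts each. Pgr, counted over both isoforms, had 166, 185, 194 and 255 CPM (counts scaled to the library total) in PGR-A OE, 248, 218, 237 and 188 CPM in PGR-B OE and 142, 126, 110.5 and 106 CPM in control libraries, in order of replicate number as in all such lists here. Both overexpression groups lay wholly above control for Pgr (log2 change 0.72 (SE 0.14, adjusted p = 0.0416) in PGR-A OE and 0.88 (SE 0.14, adjusted p = 0.0196) in PGR-B OE, from edgeR's quasi-likelihood fit, adjusted after Benjamini and Hochberg over the 15561 genes tested). Prl8a2 had 1278, 1229.7, 192 and 5.02 CPM in PGR-A OE, 873, 729.5, 744 and 985 CPM in PGR-B OE and 174, 449.7, 429.6 and 5054 CPM in control libraries. PGR-A OE replicate 4 had by far the lowest Prl8a2 and control replicate 4 by far the highest, while the PGR-B OE libraries lay close together. The main axis of variation (first principal component, 23.0% of variance) put PGR-A OE replicate 4 at 62.4 and the other 11 libraries at -31.0 to 7.58. All 11 smooth muscle markers were measured, and their summed level was 18099 to 24913 CPM in PGR-A OE, 13152 to 17449 CPM in PGR-B OE and 13521 to 17652 CPM in control. All 4 PGR-A OE libraries thus lay above every library of the other groups. Of the 11, 10 had a higher estimate in PGR-A OE than in control, against 50.1% of all genes. All 11 had a lower estimate in PGR-B OE than in PGR-A OE, against 48.8%, and 0 passed in either comparison. The 6 decidual markers summed to 37.4 to 1307 CPM in PGR-A OE, 752 to 1017 CPM in PGR-B OE and 195 to 5086 CPM in control, and one of them, Prl3c1, was at 0 in PGR-A OE replicates 3 and 4 and in control replicate 1. PGR-A OE replicate 4 had the highest smooth muscle sum and the lowest decidual sum of the 12. Prl8a2 itself made up 5054 of the 5086 CPM in control replicate 4, and 5.02 of the 37.4 CPM in PGR-A OE replicate 4. The decidual sum is thus no separate sign of decidua beside Prl8a2. In a fit with group terms, 4 other decidual genes were tested for a slope on Prl8a2, and 1 rose and 3 fell with it (median -0.01 in log2 per doubling). In whole tissue, fewer cells of a type and less RNA per cell cannot be told apart.

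All 32 genes were expressed. Per kilobase of gene length, control libraries had the lectin chaperone Calr (calreticulin) at the top with 1027 ± 77.5 CPM per kilobase (SD, n = 4 here and for the other levels). It was followed by the isomerase Pdia3 at 584 ± 20.8, Hsp90b1 (GRP94) at 576 ± 25.5 and Hspa5 (BiP, the master chaperone that holds the 3 sensors inactive) at 534 ± 67.7, all in CPM per kilobase. Those 3 levels did not differ beyond their spread. Among the transcription factors, Xbp1 was the most abundant in control at 211 ± 27.6 CPM per kilobase, above Atf4 at 110.3 ± 1.39, Atf6 at 11.3 ± 0.298 and Ddit3 at 10.6 ± 1.80. The lowest of the 32 were Trib3, a pseudokinase that damps ATF4 signalling, at 2.40 ± 0.617, Derl3, a derlin of secretory cells, at 2.19 ± 1.13, and Chac1, a glutathione-degrading enzyme, at 1.43 ± 0.558 CPM per kilobase. These 3 levels overlapped. Over the 12 libraries, the highest level exceeded the lowest by 1.24-fold in Sel1l, the adaptor of the degradation ligase, and by 2.78-fold in Derl3, the least and most variable of the 32.

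**Figure D1:**
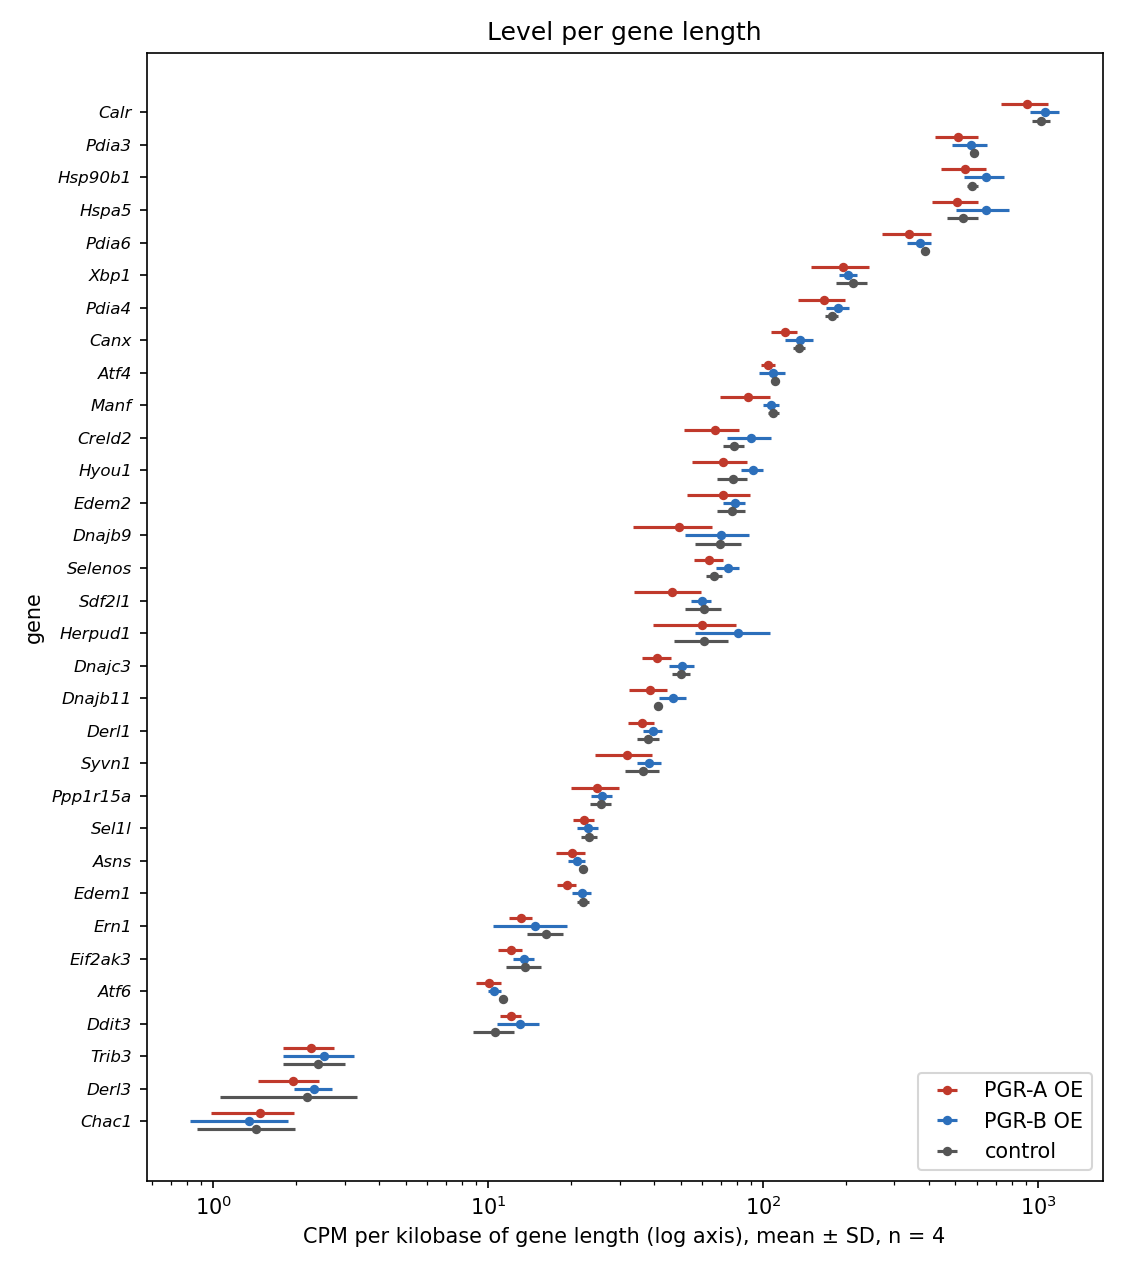
Mean level of the 32 genes in CPM per kilobase of gene length on a log axis, with the SD of 4 libraries as bars, for PGR-A OE (red), PGR-B OE (blue) and control (grey). Calr is at the top at 1027 in control and Chac1 at the bottom at 1.43, and the 3 groups lie close together for nearly every gene.

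The promoters are shown because several of these genes share a regulatory sequence. Promoters came from RefSeq on GRCm38.p6 (250 bases before to 50 after the annotated start), and 28 of the 32 genes had an entry, without Atf6, Derl1, Manf and Hyou1. Each was searched on both strands for the ER stress response element I (CCAAT and CCACG with any 9 bases between them), which is bound by ATF6 and XBP1 together with NF-Y. This element stood in 9 of the 28 promoters (32.1%), against 37 of the 27025 promoters in the table (0.137%). Element II (ATTGG and CCACG with any 1 base between them) stood in 2 of the 28 (7.14%), against 12 of all promoters (0.0444%). In the whole promoters of Hspa5, which carries element I, and Herpud1, which carries element II and a C/EBP-ATF site, capitals mark the matched letters.
Hspa5 (chr2:34771840-34772139, + strand): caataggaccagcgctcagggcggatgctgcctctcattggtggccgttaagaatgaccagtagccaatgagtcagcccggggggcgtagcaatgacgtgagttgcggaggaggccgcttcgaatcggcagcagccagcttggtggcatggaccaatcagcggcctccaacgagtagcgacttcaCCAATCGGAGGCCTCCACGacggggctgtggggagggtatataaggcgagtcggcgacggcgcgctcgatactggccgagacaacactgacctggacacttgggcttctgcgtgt
Herpud1 (chr8:94386179-94386478, + strand): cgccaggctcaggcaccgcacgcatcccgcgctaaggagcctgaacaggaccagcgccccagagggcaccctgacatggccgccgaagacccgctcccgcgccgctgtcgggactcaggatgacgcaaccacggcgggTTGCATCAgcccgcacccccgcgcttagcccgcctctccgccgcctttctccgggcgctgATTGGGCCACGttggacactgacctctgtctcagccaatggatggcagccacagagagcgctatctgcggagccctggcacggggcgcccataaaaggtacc

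Matches to element I in 8 other promoters are shown with 12 flanking bases, so that the spacing of the CCAAT and CCACG parts can be compared. They belong to Hsp90b1 (with a pair of sites), the BiP cofactor Dnajc3, Creld2, a secreted disulfide isomerase-like protein, Calr, Canx, Pdia6, Syvn1 and Derl3. Capitals mark the element, and CGTGG before ATTGG is the same element read on the other strand.
Hsp90b1 (chr10:86705626-86705668, - strand): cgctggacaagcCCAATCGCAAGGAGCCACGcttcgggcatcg
Hsp90b1 (chr10:86705521-86705563, - strand): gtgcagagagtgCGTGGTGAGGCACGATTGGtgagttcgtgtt
Dnajc3 (chr14:118937815-118937857, + strand): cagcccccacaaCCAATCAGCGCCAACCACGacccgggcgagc
Creld2 (chr15:88819508-88819550, + strand): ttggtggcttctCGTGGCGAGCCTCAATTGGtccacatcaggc
Calr (chr8:84847063-84847105, - strand): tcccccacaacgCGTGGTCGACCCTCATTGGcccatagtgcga
Canx (chr11:50325788-50325830, - strand): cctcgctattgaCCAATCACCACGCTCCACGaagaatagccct
Pdia6 (chr12:17266479-17266521, + strand): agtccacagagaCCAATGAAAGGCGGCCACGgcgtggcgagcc
Syvn1 (chr19:6046520-6046562, + strand): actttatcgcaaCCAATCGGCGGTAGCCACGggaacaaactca
Derl3 (chr10:75893230-75893272, + strand): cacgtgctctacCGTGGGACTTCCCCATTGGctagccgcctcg

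The match in Dnajb11, which encodes another BiP cofactor, was to element II, just after its annotated start. The C/EBP-ATF response element (TGATG and AA with any 1 base between them), to which ATF4 binds with C/EBP partners, stood in 4 of the 28 promoters (14.3%), against 1219 of all (4.51%). Besides Herpud1, these were Trib3, Asns (asparagine synthetase) and Chac1, all targets of ATF4. The unfolded protein response element core, searched in the same way, was in none of the 28 and in 0.714% of all promoters. No element match is by itself a bound site. Capitals mark the element in each line.
Dnajb11 (chr16:22857840-22857874, + strand): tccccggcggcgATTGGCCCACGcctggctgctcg
Trib3 (chr2:152344027-152344058, - strand): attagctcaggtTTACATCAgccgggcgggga
Asns (chr6:7693213-7693244, - strand): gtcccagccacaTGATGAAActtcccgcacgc
Chac1 (chr2:119351037-119351068, + strand): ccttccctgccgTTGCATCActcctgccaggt

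A pair of libraries set most of the extremes among the 32 genes. In PGR-A OE replicate 4, 30 of 32 genes lay below their mean over the 12 libraries, with a median deviation of -0.49 in log2(CPM + 0.1). Of all genes tested, 50.1% lay below their mean in PGR-A OE replicate 4, with a median deviation of -0.0007. That library was the lowest of the 12 for 22 of 32 genes (68.8%), against 17.5% of all genes tested. The furthest below was Sdf2l1, a partner of ER chaperones, at -0.94. In PGR-B OE replicate 2, the highest of the 12 for 15 of 32 genes (46.9%, against 12.3% of all genes), the median deviation was 0.21, against -0.003 for all genes. The 11 genes with an ER stress response element had a median deviation of -0.49 in PGR-A OE replicate 4, and all 11 were below their mean. The 14 genes with neither that element nor the C/EBP-ATF element had a median of -0.36 there, with 12 below. The same library had the lowest Prl8a2 and the highest smooth muscle markers, and their part in these low values was not tested.

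**Figure D2:**
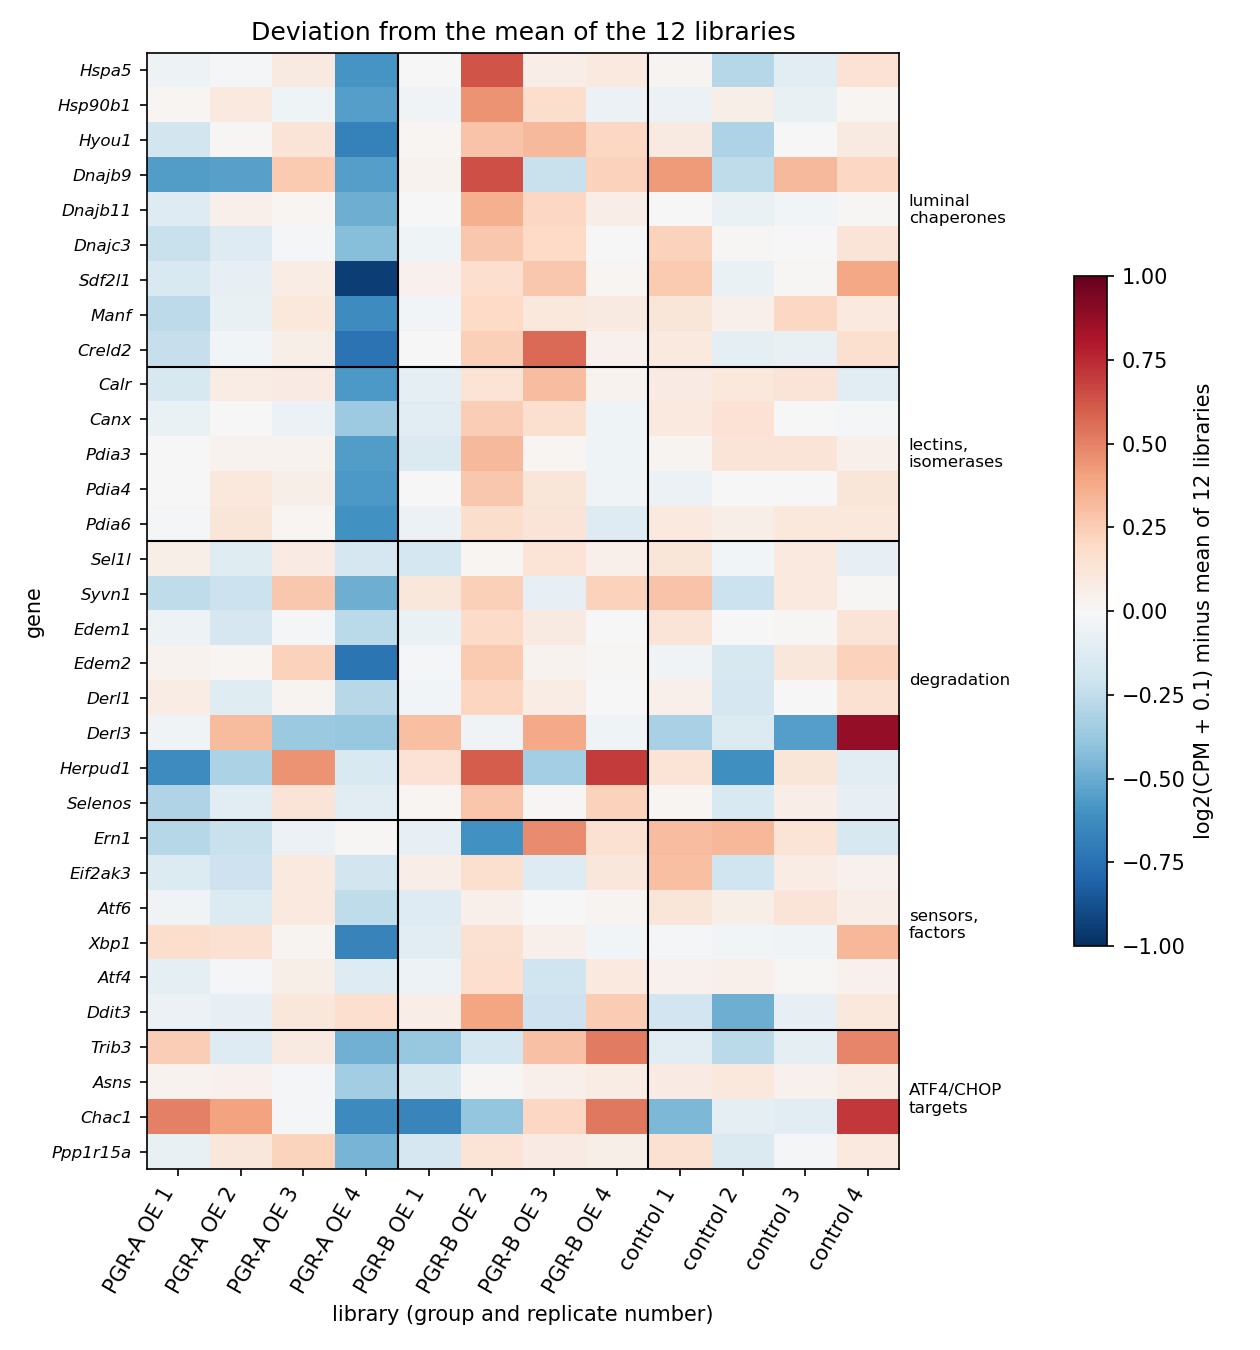
Deviation of each of the 32 genes (rows, grouped by role) from its mean over the 12 libraries (columns), in log2(CPM + 0.1), blue below and red above the mean. The column of PGR-A OE replicate 4 is blue for 30 of 32 genes, with Ddit3 among the few above, and that of PGR-B OE replicate 2 is mostly red.

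In PGR-A OE against control uteri, 30 of the 32 genes had a lower estimate and none passed the test. The median log2 change was -0.13, against 0.00 for all genes tested, of which 50.1% had a higher estimate, and the range was -0.50 for Dnajb9 to 0.19 for Ddit3. In edgeR's quasi-likelihood fit, 0 of 32 were called at 0.05, against 0.655% of all genes. DESeq2 and limma voom called 0 as well. At an unadjusted p under 0.05, 5 of 32 were lower (15.6%) and 0 higher, against 7.87% and 7.56% of all genes. These were Dnajc3, Edem1, Manf, Atf6 and Dnajb9. Without PGR-A OE replicate 4, the count of lower estimates was 21 of 32 with a median of -0.05. At an unadjusted p under 0.05, 1 of 32 was then lower, against 6.89% of all genes. With log2 CPM of Prl8a2 as a covariate, 24 of 32 were lower, with a median of -0.08. Of these, 1 had an unadjusted p under 0.05, against 7.95% of all genes that were lower at that p.

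All 9 luminal chaperones and cofactors had lower estimates in PGR-A OE than in control, with a median log2 change of -0.23, and 0 passed. Without PGR-A OE replicate 4, 5 of 9 were lower, with a median of -0.09. Hspa5 (chr2:34771970-34777547 on GRCm38, as for the other positions) had 1398, 1424, 1538 and 959 CPM in PGR-A OE, 1441, 2237, 1511 and 1547 CPM in PGR-B OE and 1469, 1188, 1333 and 1599.9 CPM in control libraries. The lowest of the 12 was PGR-A OE replicate 4 and the highest PGR-B OE replicate 2, and the other values of the 3 groups overlapped. Its log2 change in PGR-A OE against control was -0.07 (SE 0.17, adjusted p = 0.879), and without PGR-A OE replicate 4 it was 0.06. Dnajc3 (chr14:118937976-118981697), which also inhibits PERK, had 208, 222, 241 and 181 CPM in PGR-A OE, 237, 294, 279.7 and 243 CPM in PGR-B OE and 287, 246, 244 and 266 CPM in control libraries. All 4 PGR-A OE libraries lay below all 4 control libraries, although the nearest pair was close. The log2 change of Dnajc3 in PGR-A OE against control was -0.29 (SE 0.10, adjusted p = 0.217). Groups that did not overlap in the lower direction were seen for 3 of 32 genes (Dnajc3, Edem1 and Asns) and for 5.57% of all genes.

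Manf (chr9:106838312-106891979), a secreted ER stress factor, had 184, 209.8, 237 and 143 CPM in PGR-A OE, 217, 254, 238 and 235 CPM in PGR-B OE and 240.4, 228, 255 and 236 CPM in control libraries. In PGR-A OE, 3 of 4 values were below all control values, and that of replicate 3 lay within the control range. Its log2 change in PGR-A OE against control was -0.31 (SE 0.13, adjusted p = 0.268), and -0.19 without PGR-A OE replicate 4. The gene model overlaps Dcaf1 and Rbm15b, so its counts are uncertain. Creld2 (chr15:88819646-88826683) had 89.4, 103, 109 and 62.8 CPM in PGR-A OE, 105, 124, 155 and 108 CPM in PGR-B OE and 112, 98.1, 99.98 and 117 CPM in control libraries. The lowest library was PGR-A OE replicate 4 and the highest PGR-B OE replicate 3, and the groups overlapped. Its log2 change in PGR-A OE against control was -0.23 (SE 0.16, adjusted p = 0.529), and -0.09 without PGR-A OE replicate 4. Dnajb11 (chr16:22857845-22879634) had 124, 141, 138 and 96.7 CPM in PGR-A OE, 136, 174, 157 and 142 CPM in PGR-B OE and 136, 129.8, 134 and 137 CPM in control libraries. The control libraries lay in a narrow band, PGR-A OE replicates 1 and 4 lay below it, and replicates 2 to 4 of PGR-B OE and 2 and 3 of PGR-A OE lay above it. The log2 change of Dnajb11 in PGR-A OE against control was -0.10 (SE 0.11, adjusted p = 0.7), and 0.0013 without PGR-A OE replicate 4.

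The 5 lectin chaperones and disulfide isomerases all had lower estimates in PGR-A OE, with a median log2 change of -0.18, and 4 of 5 without replicate 4 of that group (median -0.05). Pdia4 (chr6:47796141-47813430), a disulfide isomerase, had 435, 468, 452 and 293 CPM in PGR-A OE, 437, 524, 473 and 424 CPM in PGR-B OE and 419, 433, 435 and 475 CPM in control libraries. The fourth PGR-A OE library was far below the other 11 libraries, which overlapped across groups. Its log2 change in PGR-A OE against control was -0.10 (SE 0.13, adjusted p = 0.769), and it turned to 0.04 without that library. Pdia3 showed the same low library, with 1454, 1487, 1487 and 989 CPM in PGR-A OE, against 1483, 1588, 1589 and 1507 CPM in control libraries. PGR-A OE replicates 1 to 3 were within or near the control range.

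All 8 genes of ER-associated degradation had lower estimates in PGR-A OE as well, with a median log2 change of -0.10, and 7 of 8 without that library (median -0.03). Edem1 (chr6:108828641-108859356), which picks misfolded glycoproteins for degradation, had 119, 109.7, 122 and 102 CPM in PGR-A OE, 118, 141, 131 and 124 CPM in PGR-B OE and 135, 124, 125 and 135 CPM in control libraries. The PGR-A OE libraries were all below the control libraries. Its log2 change in PGR-A OE against control was -0.19 (SE 0.08, adjusted p = 0.267). Selenos (chr7:66079649-66089405), a selenoprotein of the degradation channel, had 67.2, 77.0, 90.3 and 76.4 CPM in PGR-A OE, 83.9, 100.11, 83.1 and 97.0 CPM in PGR-B OE and 83.6, 74.5, 86.7 and 78.2 CPM in control libraries. Its lowest library was PGR-A OE replicate 1, not replicate 4, and its groups overlapped. The log2 change of Selenos in PGR-A OE against control was -0.06 (SE 0.10, adjusted p = 0.825).

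Among the sensors and transcription factors, 5 of 6 had lower estimates in PGR-A OE, with a median log2 change of -0.14, and 4 of 6 without replicate 4 (median -0.08). Xbp1 (chr11:5520659-5525893) had 512, 502, 460.0 and 285 CPM in PGR-A OE, 418, 502, 468 and 443 CPM in PGR-B OE and 447, 444, 441 and 568 CPM in control libraries. Its lowest library was PGR-A OE replicate 4 and its highest control replicate 4, and the other 10 libraries lay between 418 and 512 CPM. Its log2 change in PGR-A OE against control was -0.11 (SE 0.16, adjusted p = 0.787), and it was 0.05 without PGR-A OE replicate 4. Atf4 (chr15:80255184-80257541) had 174, 184, 193 and 169.6 CPM in PGR-A OE, 179, 208, 162 and 199 CPM in PGR-B OE and 191, 193, 187 and 191 CPM in control libraries. It was nearly flat in control and overlapped between groups, with a log2 change of -0.08 (SE 0.08, adjusted p = 0.656) in PGR-A OE.

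Ddit3 (chr10:127290829-127293753), which encodes the death-linked factor CHOP, had 9.85, 9.65, 11.1 and 11.5 CPM in PGR-A OE, 10.7, 13.5, 8.86 and 12.2 CPM in PGR-B OE and 8.93, 7.28, 9.69 and 11.05 CPM in control libraries. It was one of 2 genes with a higher estimate in PGR-A OE, at 0.19 (SE 0.15, adjusted p = 0.578) on the log2 scale, and PGR-A OE replicate 4 was here the highest library of its group. Ddit3 overlaps Mars on the opposite strand, and its counts are uncertain because the strand setting is not given in the sources used here. Chac1 (chr2:119351229-119354381) had 3.03, 2.83, 2.09 and 1.32 CPM in PGR-A OE, 1.30, 1.596, 2.45 and 3.09 CPM in PGR-B OE and 1.52, 1.97, 1.96 and 3.51 CPM in control libraries, the lowest levels of the 12 named genes. Its groups overlapped widely, with a log2 change of 0.05 (SE 0.35, adjusted p = 0.964) in PGR-A OE, and 0.24 without replicate 4 of that group. The 4 targets and feedback genes of the ATF4 and CHOP arm, Chac1, Trib3, Asns and the eIF2alpha phosphatase subunit Ppp1r15a, had a median log2 change of -0.07, with 3 of 4 lower, and 1 of 4 lower without PGR-A OE replicate 4.

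**Figure D3:**
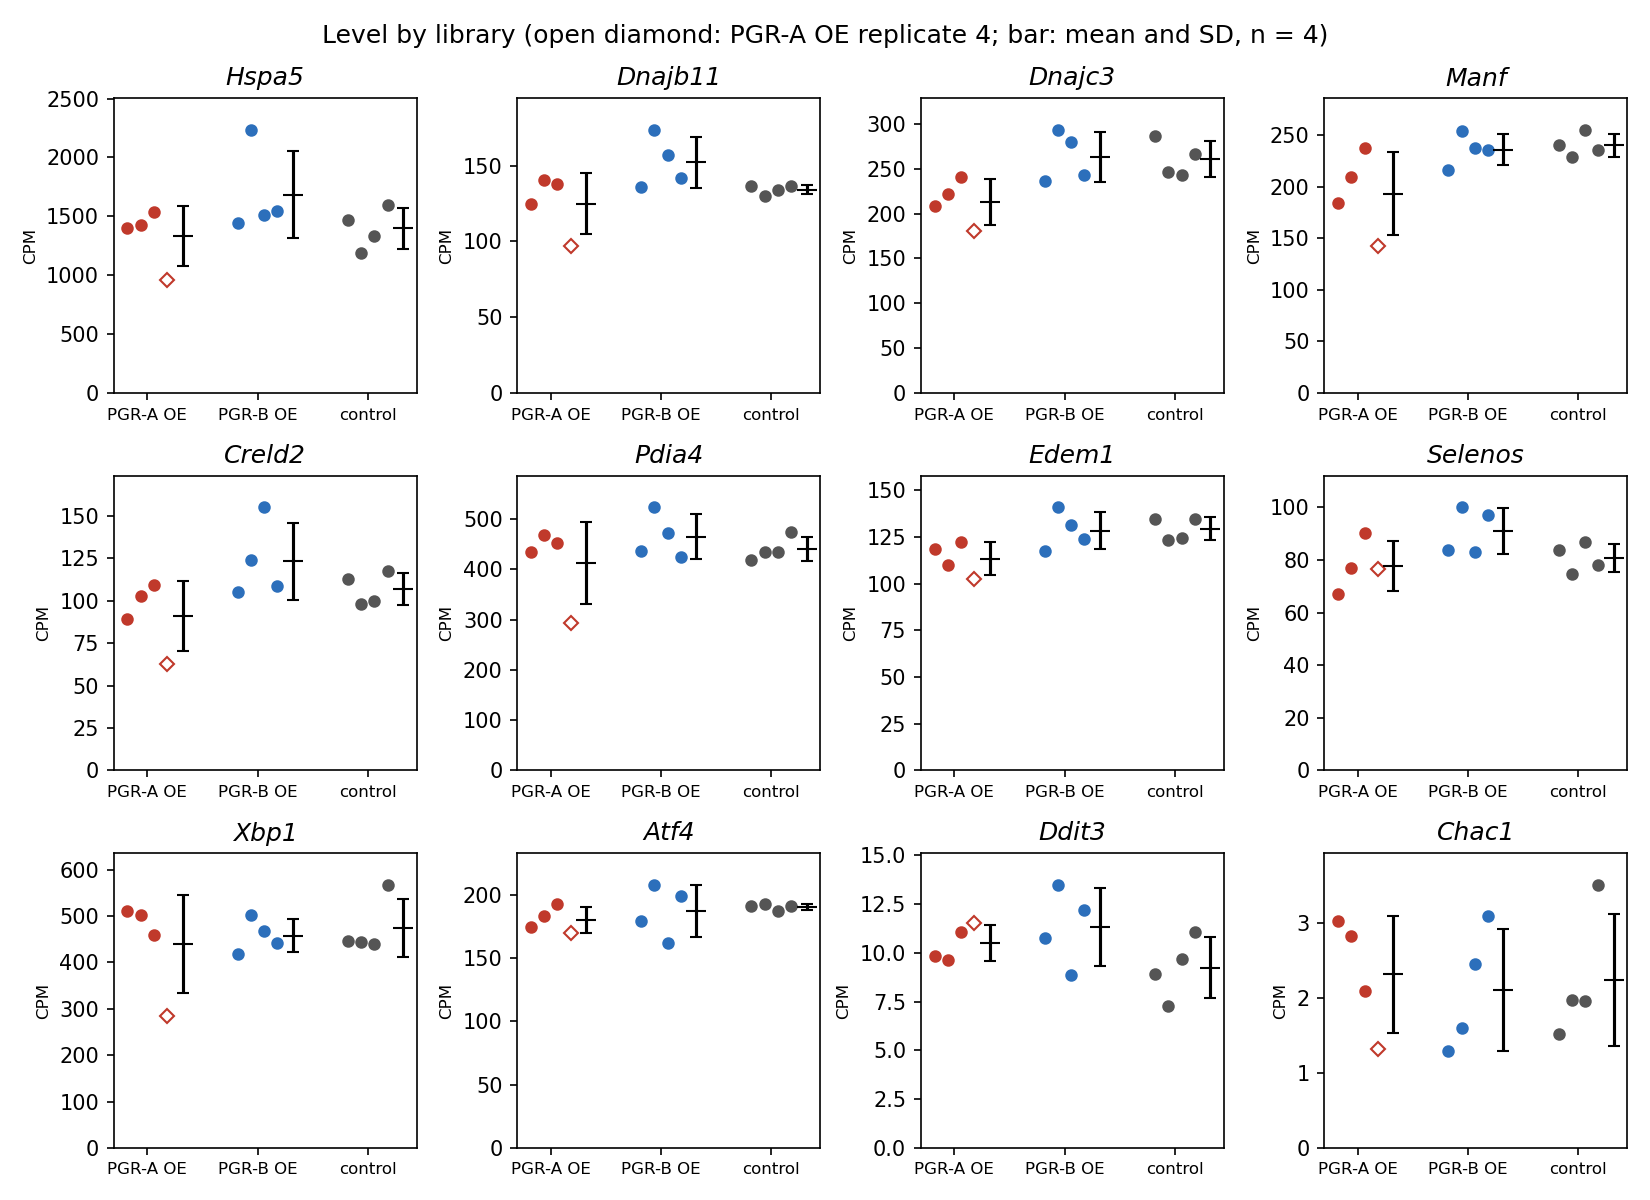
CPM by library for 12 of the genes, with PGR-A OE (red), PGR-B OE (blue) and control (grey); the open diamond is PGR-A OE replicate 4 and bars give the mean and SD of 4 libraries. The diamond is the lowest point of the 12 for Hspa5, Dnajb11, Dnajc3, Manf, Creld2, Pdia4, Edem1 and Xbp1, and not for Selenos, Atf4, Ddit3 or Chac1.

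In PGR-B OE against control uteri, estimates went both ways, with 19 of 32 higher and 13 lower and a median log2 change of 0.01, and 48.8% of all genes were higher. None passed edgeR's test (0 of 32, against 0.308% of all genes), none by DESeq2 or limma voom, and none had an unadjusted p under 0.05, against 9.28% of all genes. Higher estimates at that p numbered 2 without control replicate 4, against 5.04% of all genes. Without both that library and PGR-A OE replicate 4 they numbered 4 (Hspa5, Hyou1, Derl3 and Ddit3), against 6.24% of all genes. Of the luminal chaperones, 7 of 9 had a higher estimate, with a median of 0.16, and the degradation genes had 6 of 8 higher with a median of 0.06. The sensors and transcription factors had 1 of 6 higher with a median of -0.04. The largest estimate was that of Herpud1, a membrane scaffold of ER-associated degradation, at 0.42 (SE 0.26, adjusted p = 0.673). It had 139.3, 191, 99.6 and 204 CPM in PGR-B OE, against 138.8, 82.5, 137 and 117 CPM in control libraries. Replicates 1, 2 and 4 of PGR-B OE lay above all control libraries, replicate 1 only just. Ddit3 was next at 0.29 (SE 0.15, adjusted p = 0.576), then Hspa5 at 0.27 (SE 0.17, adjusted p = 0.687), and Dnajb11 and Selenos stood at 0.18 (SE 0.11, adjusted p = 0.664) and 0.17 (SE 0.10, adjusted p = 0.621). Groups did not overlap for 1 gene, Atf6, with 72.3, 81.7, 79.0 and 80.8 CPM in PGR-B OE, all below the 85.9, 82.1, 86.7 and 82.9 CPM of control libraries, and such lower groups were seen for 2.6% of all genes. These estimates used the same 4 control libraries as those of PGR-A OE.

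**Figure D4:**
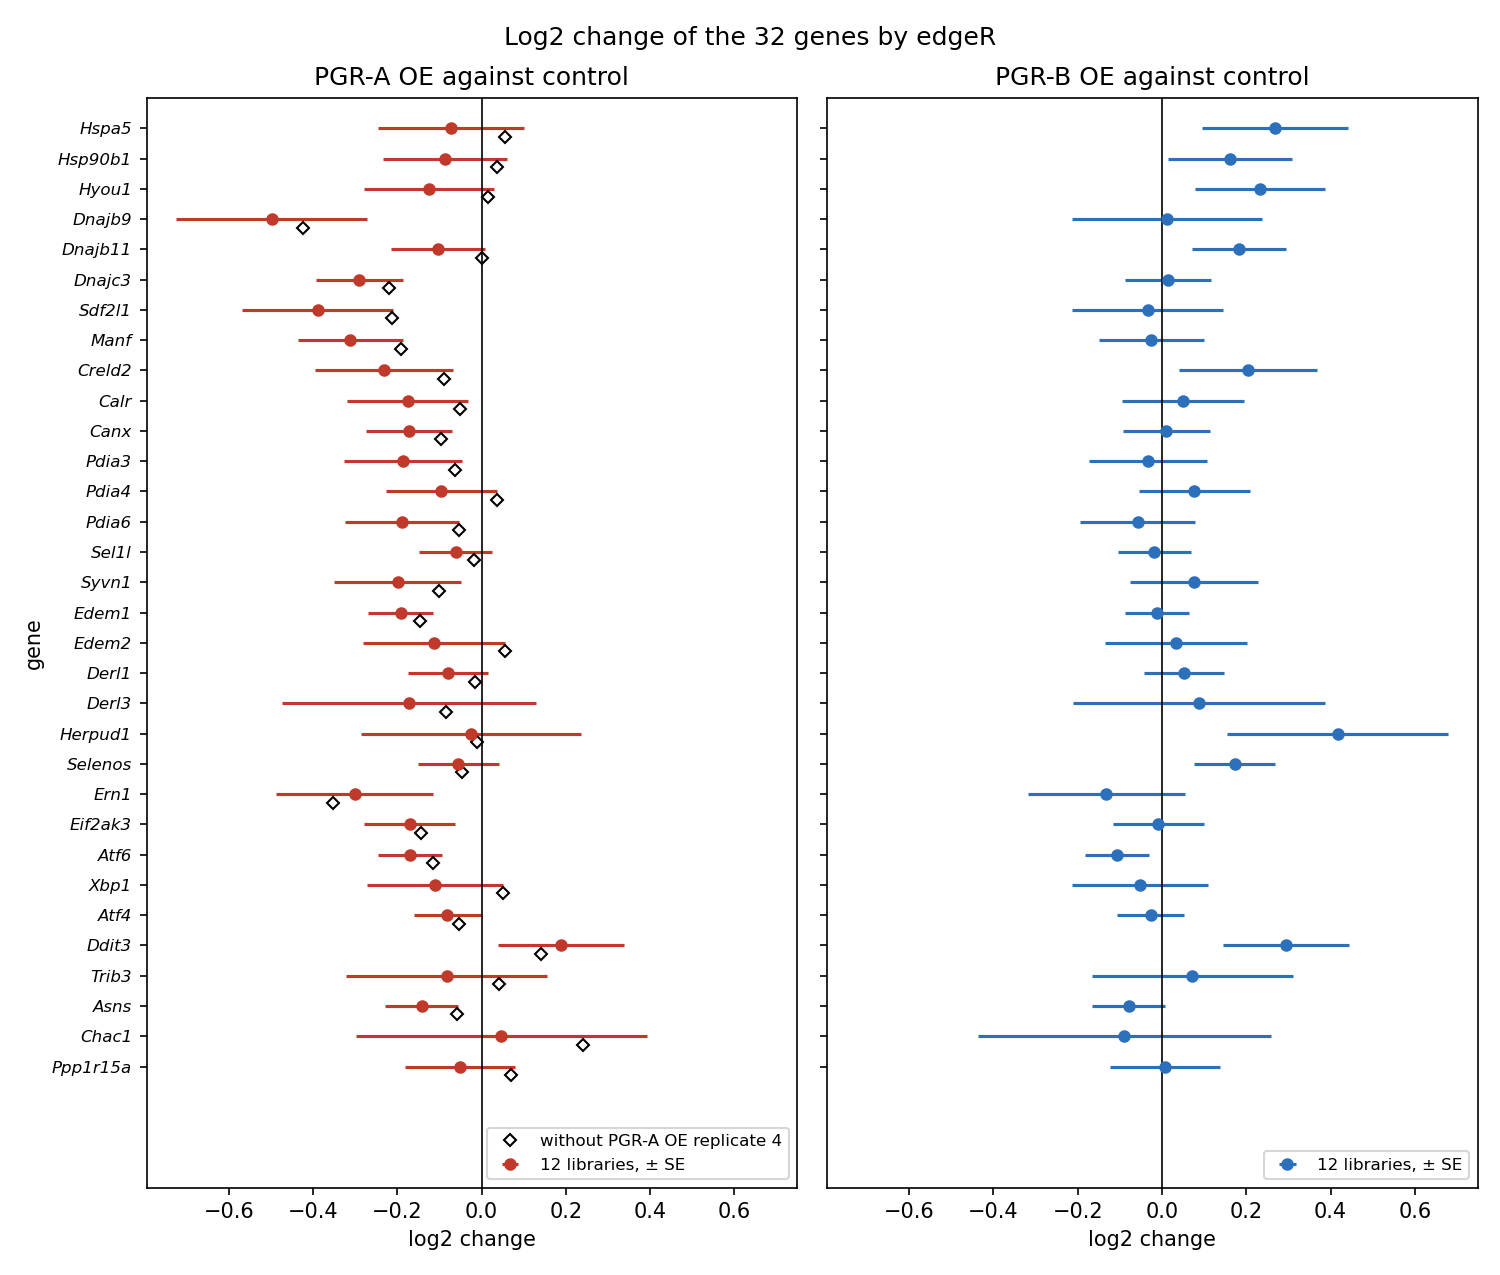
Log2 change of the 32 genes by edgeR with its standard error over 12 libraries, for PGR-A OE against control (left, red) and PGR-B OE against control (right, blue); open diamonds give the PGR-A OE estimate without replicate 4. On the left 30 of 32 points lie below 0, and 21 of 32 diamonds do; on the right 19 of 32 points lie above 0, and none of these changes passed the test.

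Between the isoforms, 31 of the 32 genes had a higher estimate in PGR-B OE than in PGR-A OE, with a median log2 change of 0.18, and the exception was Chac1; of all genes, 51.2% were higher. None passed edgeR's test (0 of 32, against 0.116% of all genes), nor did any by DESeq2 or limma voom. At an unadjusted p under 0.05, 8 of 32 were higher (25%), against 3.28% of all genes, and 0 were lower, against 4.76%. They were 6 of the 9 luminal chaperones (Dnajc3, Creld2, Dnajb11, Hyou1, Manf and Dnajb9) and the degradation genes Selenos and Edem1. Without PGR-A OE replicate 4, 26 of 32 estimates were higher and the median was 0.13. In that setting 2 genes were higher at an unadjusted p under 0.05, against 3.8% of all genes. That count was also 2 when the 8 libraries of these groups were fitted alone (2.56% of all genes) and when Prl8a2 was a covariate (4.43%). It was 3 without PGR-B OE replicate 2 (2.58% of all genes). The lowest p was that of Dnajc3, which averaged 263 ± 27.8 CPM in PGR-B OE and 213 ± 25.4 CPM in PGR-A OE libraries (SD, n = 4 each), with a log2 estimate of 0.30 (SE 0.10, adjusted p = 0.476) from edgeR. Creld2 averaged 123 ± 22.8 CPM in PGR-B OE and 91.1 ± 20.6 CPM in PGR-A OE, a log2 change of 0.44 (SE 0.16, adjusted p = 0.54). Dnajb11 averaged 152 ± 16.9 CPM in PGR-B OE and 125 ± 20.1 CPM in PGR-A OE, a log2 change of 0.29 (SE 0.11, adjusted p = 0.556). In all 32 genes the PGR-B OE and PGR-A OE libraries overlapped, as they did in the upward direction for all but 1.5% of the genes tested.

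The level of Prl8a2 gave the one call among the 32 genes. In a fit of all 12 libraries with a term for each group, Xbp1 rose with Prl8a2, by 0.10 in log2 for each doubling of Prl8a2 (SE 0.02, adjusted p = 0.0135 in edgeR's quasi-likelihood fit). That is 1 of 32 genes past 0.05 in the positive direction, against 0.636% of the 15560 genes in that fit. Positive slopes at an unadjusted p under 0.05 were seen in 13 of 32 (40.6%), against 7.83% of all genes, and 26 of 32 slopes were positive, against 50.5% of all. The 13 became 3 of 32 without PGR-A OE replicate 4, against 7.4% of all genes. Without both that library and control replicate 4, 0 of 32 were positive at that p, against 3.93% of all genes, and 5 were negative, against 2.83%. The next were Chac1 at 0.17 (SE 0.05, adjusted p = 0.0929) and Pdia4 at 0.07 (SE 0.02, adjusted p = 0.0929) in log2 per doubling of Prl8a2, both short of the threshold. Atf4 and Ddit3 had slopes of 0.01 (SE 0.02, adjusted p = 0.867) and -0.0041 (SE 0.03, adjusted p = 0.968).

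The Xbp1 call was lost when single libraries were left out. Without PGR-A OE replicate 4 the slope was 0.07 (adjusted p = 0.235), and without PGR-A OE replicate 1 it was 0.10 (adjusted p = 0.0527), both by edgeR. Without both PGR-A OE replicate 4 and control replicate 4, it was 0.03 (adjusted p = 0.964), 6 of 32 slopes were positive, and 0 of all genes passed. With PGR-A OE replicate 4 alone left out, 12 of 32 slopes were positive, and the only one of the 32 past the threshold was Derl3, at 0.26 per doubling (adjusted p = 0.0361). Derl3 had 2.71, 3.49, 2.12 and 2.11 CPM in PGR-A OE, 3.45, 2.71, 3.64 and 2.69 CPM in PGR-B OE and 2.19, 2.51, 1.86 and 5.18 CPM in control libraries, and its highest library was control replicate 4, the one with the most Prl8a2.

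**Figure D5:**
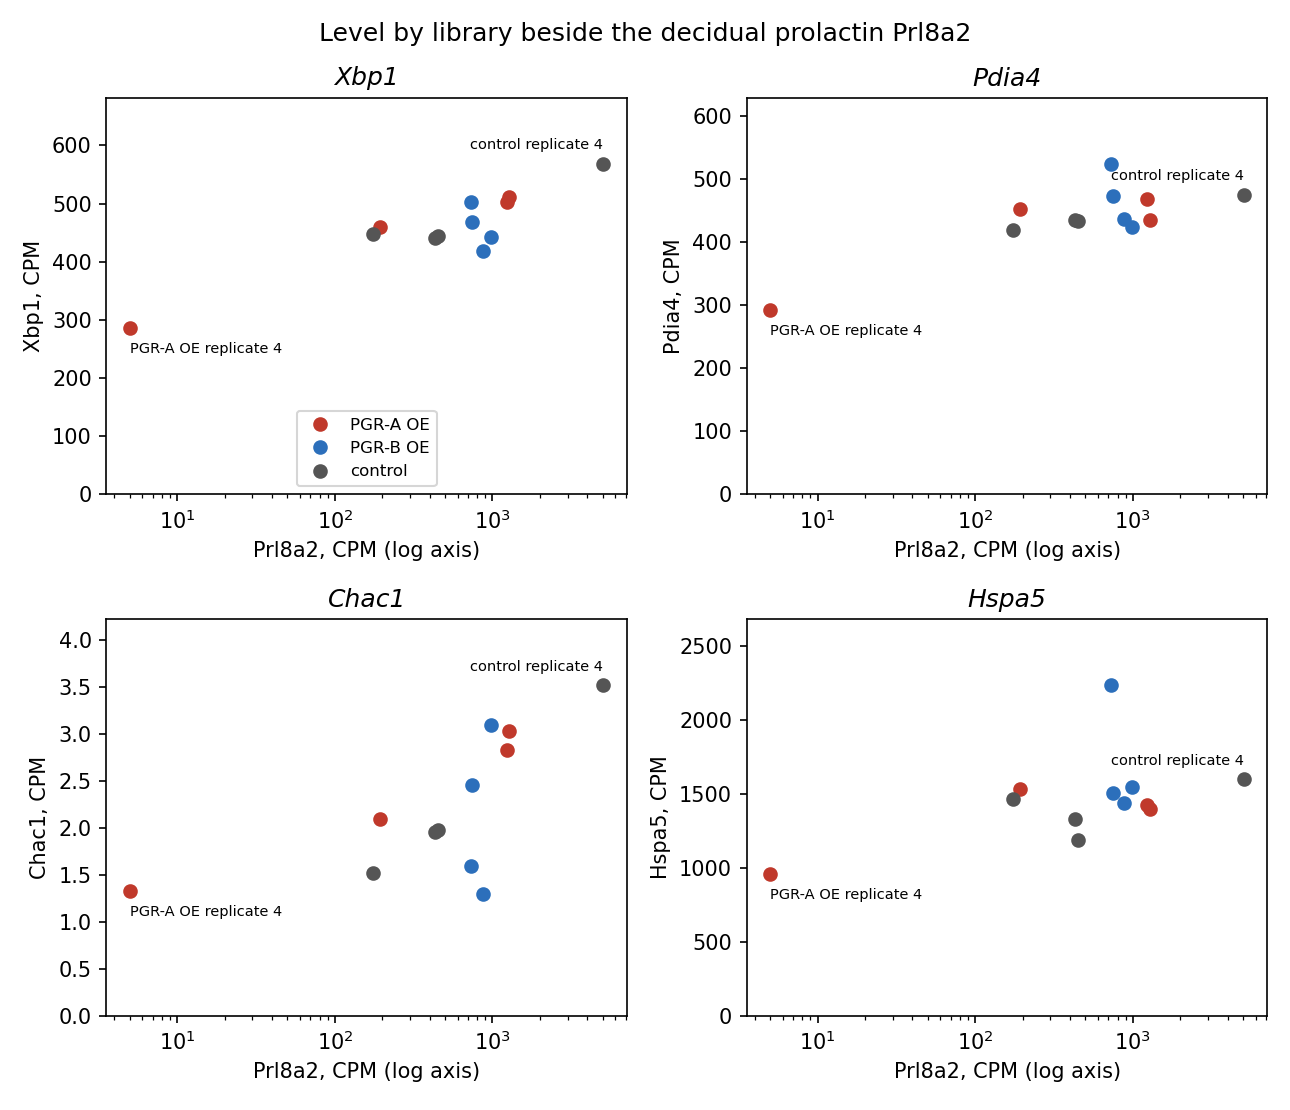
CPM of Xbp1, Pdia4, Chac1 and Hspa5 (vertical, from 0) against CPM of Prl8a2 (horizontal, log axis) in the 12 libraries, with PGR-A OE in red, PGR-B OE in blue and control in grey. PGR-A OE replicate 4 lies alone at the left with 5.02 CPM of Prl8a2 and the lowest Xbp1, Pdia4 and Hspa5, and control replicate 4 lies alone at the right with the highest Xbp1 and Chac1.

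Other genes of the secretory pathway were read from lists of neighbouring functions, and none of their genes passed the test in any of the 3 comparisons. The translocon, signal peptidase and oligosaccharyltransferase, which bring proteins into the ER and glycosylate them, had 23 of 23 genes with a lower estimate in PGR-A OE against control (median log2 change -0.19), of which 10 had an unadjusted p under 0.05 (43.5%, against 7.87% of all genes). Ssr4, a subunit of the translocon-associated complex, was at -0.43 (SE 0.11, adjusted p = 0.12) in that comparison. Without PGR-A OE replicate 4, 21 of 23 were lower, with a median of -0.14 and 3 at an unadjusted p under 0.05, against 6.89% of all genes. In PGR-B OE against control the same list had 16 of 23 lower, with a median of -0.06. ER to Golgi transport had 19 of 22 lower in PGR-A OE (median -0.11) and 14 of 22 lower in PGR-B OE (median -0.04). Kdelr1, a receptor that returns ER proteins from the Golgi, was at -0.27 (SE 0.08, adjusted p = 0.154) in PGR-A OE. Other ER folding enzymes had 15 of 17 lower in PGR-A OE (median -0.14) and 12 of 17 lower in PGR-B OE (median -0.06). Other degradation genes had 14 of 16 lower in PGR-A OE (median -0.10), with the mannosidase-like Edem3 at -0.36 (SE 0.09, adjusted p = 0.0996), and 8 of 16 lower in PGR-B OE (median 0.00).

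Estimates of genes linked to ATF4 went in both directions. Of 19 other ATF4-linked genes of amino acid supply and stress, 10 had a higher estimate in PGR-A OE against control (median 0.01), led by the factor Atf5 at 0.27 (SE 0.06, adjusted p = 0.0763) and Phgdh, the first enzyme of serine synthesis, at 0.57 (SE 0.18, adjusted p = 0.17). In PGR-B OE, 10 of 19 were higher (median 0.01). Of 10 other sensors and proteases tested, 6 were lower in PGR-A OE, among them Mbtps2, which encodes the site-2 protease that cuts ATF6, at -0.31 (SE 0.08, adjusted p = 0.101). In PGR-B OE 7 of 10 were lower, and the ER-anchored factor Creb3l1 was at 0.34 (SE 0.09, adjusted p = 0.212). The other eIF2alpha kinases and phosphatases had 4 of 5 lower in PGR-A OE, with the phosphatase subunit Ppp1r15b at -0.25 (SE 0.06, adjusted p = 0.0994), and 4 of 5 lower in PGR-B OE. Cytosolic heat shock genes, which answer misfolding outside the ER, had 10 of 13 lower in PGR-A OE (median -0.02) and 3 of 13 lower in PGR-B OE (median 0.09). Without PGR-A OE replicate 4, lower estimates in PGR-A OE numbered 15 of 22 for ER to Golgi transport, 12 of 17 for folding enzymes, 13 of 16 for degradation and 5 of 13 for cytosolic heat shock. With Prl8a2, 1 gene of these lists passed, the isomerase Pdia5, at 0.09 (SE 0.02, adjusted p = 0.0418) in log2 per doubling by edgeR with Benjamini-Hochberg adjustment. Without both PGR-A OE replicate 4 and control replicate 4, 0 of all genes passed for this slope, so the Pdia5 call was lost as well.

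Markers of other cells that secrete heavily were read beside these results. Uterine epithelium, 8 markers of 8, summed to 1203 to 2527 CPM in PGR-A OE, 1235 to 2108 CPM in PGR-B OE and 1245 to 1827 CPM in control. Plasma cells, 5 markers of 7, summed to 86.1 to 207 CPM in PGR-A OE, 77.1 to 130.1 CPM in PGR-B OE and 84.9 to 115 CPM in control. Stroma, 5 markers of 5, summed to 27488 to 34114 CPM in PGR-A OE, 27796 to 34673 CPM in PGR-B OE and 23705 to 24754 CPM in control. In this sum both overexpression groups thus lay wholly above control. By gene, 3 of the 5 had a higher and 2 a lower estimate in each comparison with control. The median log2 change was 0.016 in PGR-A OE and 0.031 in PGR-B OE, so the sum does not stand for all 5 genes. In each comparison with control, 2 of 5 stromal genes were higher at an unadjusted p under 0.05. Of all genes, 7.56% were so in PGR-A OE and 4.69% in PGR-B OE. After adjustment 0 of the 5 stromal genes passed. PGR-A OE replicate 4, in which most of the 32 genes were lowest, had the highest epithelial and plasma cell sums of the 12 libraries. Trophoblast, 8 markers of 8, summed to 0.705 to 3.61 CPM in PGR-A OE, 1.56 to 15.0 CPM in PGR-B OE and 1.03 to 14.7 CPM in control, and was lowest in that same library. The part of these cells in the values of the 32 genes was not tested.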

How the data were processed

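Whole-gene read counts deposited by the authors for 12 libraries of mouse uterus (paired-end reads of 75 bp, per the labels' protocols) were used as they stand, with the gene length (another unit, in bases) from the same deposited table. The submitters' processing notes name Bowtie2 2.2.5, STAR 2.7.0f, featureCounts of Subread 1.6.4, DESeq2 and the builds mm10 and GRCm38. The strand setting, annotation and handling of multimapped reads were not given in the sources used here.

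Of 24964 genes, 15561 passed edgeR's filterByExpr, among them all 32 of interest. Counts were scaled by TMM and fitted with edgeR 4.0.16 (robust quasi-likelihood, R 4.3.3) over all 12 libraries, with 3 comparisons between groups, and with a slope on log2 CPM of Prl8a2 beside the group terms. P-values were adjusted over all genes by the Benjamini-Hochberg method, with a threshold of 0.05. DESeq2 1.42.0, limma voom 3.58.1, other scaling, no filter, 8 libraries, left-out libraries, Prl8a2 as a covariate and a replicate block were tried as alternatives. The fit was tested on simulated counts. Levels in CPM use TMM-scaled totals, and levels per kilobase divide these by the deposited length.

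The 12 genes given by library are the 3 with the lowest p in each comparison and in the slope, with Hspa5, Ddit3, Atf4 and Xbp1; Pdia3, Herpud1, Atf6 and Derl3 were added after their values were seen. The genes, the lists and the decidual comparison were chosen with earlier results of these data known. Gene positions are from the GENCODE annotation of GRCm38, and promoter sequences from RefSeq. Models that overlap another gene in the table, so that counts are uncertain, are Ddit3, Dnajb9, Hsp90b1, Manf, Pdia3, Pdia4, Pdia6, Ppp1r15a and Syvn1. Manf overlaps Rbm15b and Pdia4 overlaps Mir704 on the same strand, so strand would not settle their counts. In the others the overlap is on the opposite strand, and the strand setting is not known. No 2 libraries held the same counts.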

Additional observations from a re-analysis of the deposited data

Results flagged for a closer look

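Of 96 sets of 4 libraries (32 genes in 3 groups), 6 held a library that stood far from the other 3 of its group, by Dixon's criterion at 95%, and chance gives about 1 in 20. Hspa5 was high in PGR-B OE replicate 2, at 2237 CPM, with 1441 to 1547 CPM in the other PGR-B OE libraries. Edem2 was high in the same library, at 206 CPM, with 169 to 175 CPM in the others. Pdia3 was low in PGR-A OE replicate 4, at 989 CPM, with 1454 to 1487 CPM in the others. Dnajb9 was high in PGR-A OE replicate 3, at 136 CPM, with 77.0 to 77.6 CPM in the others. Pdia6 was low in control replicate 2, at 802 CPM, with 824 to 829 CPM in the others. Xbp1 was high in control replicate 4, at 568 CPM, with 441 to 447 CPM in the others. Prl8a2, which is not one of the 32, was high in that same library, at 5054 CPM, with 174 to 450 CPM in the others.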

How the results depend on the processing

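The finding that 0 of the 32 genes passed in any of the 3 group comparisons held under each alternative. The count of all genes called moved more. In PGR-A OE against control it was 102, with 564 by DESeq2, 63 with 8 libraries and 32 to 99 with 1 library left out. In PGR-B OE against control it was 48, with 221 by DESeq2, 91 without both PGR-A OE replicate 4 and control replicate 4, and 22 to 48 with 1 left out. Between PGR-B OE and PGR-A OE it was 18, with 126 by DESeq2, 10 with 8 libraries, 38 without those 2 libraries, 29 with Prl8a2 as a covariate and 11 to 31 with 1 left out. For the slope on Prl8a2 it was 216, with 82 to 469 with 1 library left out and 0 without the 2 libraries farthest from the median of Prl8a2. Counts of estimates by direction, by list and by role too, were added after the data were seen. Lower estimates in PGR-A OE against control numbered 30 of 32, with 24 with Prl8a2 as a covariate, 19 without those 2 libraries and 21 to 31 with 1 left out; higher estimates in PGR-B OE against control numbered 19, with 12 (without control replicate 2) to 24 (without PGR-B OE replicate 1). Higher estimates of PGR-B OE over PGR-A OE numbered 31, with 26 to 32. Positive slopes numbered 26, with 6 without the 2 farthest libraries and 12 to 28 with 1 left out. The 1 gene past the slope threshold was 0 on the mean log2 CPM of 5 decidual genes, Prl8a2 among them. The Xbp1 slope was then 0.32 per log2 unit of that mean (adjusted p = 0.266 by edgeR). That unit is not a doubling of Prl8a2, so the sizes of these slopes cannot be compared. The count was 0 without the 2 farthest libraries and 0 to 2 with 1 left out. For 20 log2 changes and 6 slopes of the 12 named genes, 434 alternative values were followed, of which 409 kept direction and side of the threshold, 21 reversed and 4 lost the call, all 4 for the slope of Xbp1. Direction reversed as follows. In PGR-A OE against control, Hspa5 was 0.13 without both libraries, 0.018 with the covariate and -0.15 to 0.056 with 1 left out, the last without PGR-A OE replicate 4, and Xbp1 was 0.15, 0.026 and -0.19 to 0.050 under the same settings. In PGR-B OE against control, Xbp1 was 0.048 without both and -0.096 to 0.045 with 1 left out, and Atf4 was -0.078 to 0.038. For PGR-B OE over PGR-A OE, Xbp1 was -0.098 without both, -0.11 with the covariate and -0.10 to 0.14 with 1 left out. The slope of Atf4 was -0.029 per log2 unit of the decidual mean. On Prl8a2 it was -0.031 without the 2 farthest libraries and -0.0090 to 0.013 with 1 left out. Without the 2 farthest, the slope of Hspa5 was -0.088 and that of Pdia4 -0.0068. Outside these 434, leaving out PGR-A OE replicate 4 gave 0.037 for Pdia4 and 0.0013 for Dnajb11 in PGR-A OE against control, and leaving out both libraries gave 0.073 and 0.0090. The slope of Ddit3 was -0.031 to 0.037 with 1 left out. The cause of these shifts was not tested.

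Replicate numbers are shared between groups. Deviations of same-numbered libraries correlated at -0.265 to 0.198, and those of different-numbered libraries at -0.367 to 0.358. The numbers thus gave no sign of pairing, but these correlations cannot settle it and the labels do not say. With a replicate block, the counts of all genes called were 69, 32 and 11 in the order of the comparisons above, 241 for the slope, and the slope of Ddit3 was 0.0037; members called stayed at 0 in the comparisons and 1 in the slope.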
